A study of Rattus norvegicus with 17 samples.

Results

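The keratins described here are the structural proteins of stratified epithelium that mark its basal layer (Krt5, Krt14), its suprabasal layers (Krt1, Krt10, Krt77), its response to wounding (Krt6a, Krt16, Krt17), the duct and hair follicle infundibulum (Krt79) and mucosal epithelium (Krt13). They are listed by gene symbol, a list drawn up with earlier results of these data known, and 8 of the 10 named genes had a row among the 17251 genes of the table. Krt6a and Krt16 were not analysed here, so Krt17 was the only wound keratin measured. The tissue was the meibomian gland (MG) of the eyelid, dissected from 17 female Sprague-Dawley rats of 10 to 12 weeks. Wild-type (WT) rats were compared with P1.hMR rats, which carry the human mineralocorticoid receptor gene NR3C2 under its own P1 promoter, a promoter described by the study as active where the receptor is normally expressed. Within each genotype, UVB rats, whose eyelids had been irradiated for 5 days, were compared with rats left without UVB. There were 4 Control WT rats, 5 Control P1.hMR rats, 3 UVB WT rats and 5 UVB P1.hMR rats, each with a single value per gene. 

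Keratins form filaments from pairs of 1 type I and 1 type II protein. In epidermis the pair KRT5 and KRT14 is made in dividing basal cells, and cells that leave the basal layer switch to the pair KRT1 and KRT10. KRT6, KRT16 and KRT17 are known as keratins of the injured epidermis, and KRT17 is also made in ducts and follicles without injury. The MG is a holocrine gland of lipid-filled meibocytes that empties through a duct lined by stratified epithelium, and excess keratinization of this duct is a known feature of MG dysfunction.

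Expression was given as TPM, a length-corrected share of each library's transcripts, from which depth cannot be read. The human transgene was listed at 0 TPM in all 7 WT rats and lay between 5.31 and 9.31 TPM in the 10 P1.hMR rats, as labelled. Between 12372 and 12737 genes per rat reached 1 TPM, and the first principal component, with 44.1% of the variance, parted the 8 UVB rats from the 9 control rats. The tissue label was checked with 18 meibocyte markers, which were present in every rat at a summed level of 49829 to 67385 TPM. Skeletal muscle markers were also present, at 2012 to 4419 summed TPM per rat. All values come from whole dissected tissue, in which fewer cells of a type and less RNA per cell cannot be told apart. Keratin genes are close in sequence, and the quantification could have divided their reads unevenly among paralogs. RefSeq also lists Krt14 as an older symbol of Krt16, and the values under Krt14 are uncertain in this respect.

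The sequences just upstream of 3 of these genes are shown because they include the keratin with the largest UVB difference, Krt77, a suprabasal keratin, Krt10, and a basal keratin, Krt5, both of which differed little. RefSeq windows of the assembly GRCr8 were found for 4 of the 8 genes (Krt5, Krt10, Krt77 and Krt79), and each line gives the 250 bases before the annotated start, 5′ to 3′ on the strand of the gene. Capitals mark matches on either strand to any of the following motifs. The TATA box was searched as TATANA. The AP-1 site was searched as TGANTCA. The third motif searched was CCAAT, and none of the matches overlap a different motif.
Krt77, chr7:134880777-134881026, minus strand: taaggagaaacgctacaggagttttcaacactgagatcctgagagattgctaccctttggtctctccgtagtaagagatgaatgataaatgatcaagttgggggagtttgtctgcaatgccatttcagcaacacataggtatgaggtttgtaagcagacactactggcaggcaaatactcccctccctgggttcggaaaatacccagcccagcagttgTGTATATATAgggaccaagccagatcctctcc
Krt10, chr10:84839161-84839410, minus strand: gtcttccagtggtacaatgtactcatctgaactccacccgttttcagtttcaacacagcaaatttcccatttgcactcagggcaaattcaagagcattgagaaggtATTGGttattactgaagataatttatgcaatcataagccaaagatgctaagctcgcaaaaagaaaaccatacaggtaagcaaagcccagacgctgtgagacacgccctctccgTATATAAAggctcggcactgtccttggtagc
Krt5, chr7:134730570-134730819, minus strand: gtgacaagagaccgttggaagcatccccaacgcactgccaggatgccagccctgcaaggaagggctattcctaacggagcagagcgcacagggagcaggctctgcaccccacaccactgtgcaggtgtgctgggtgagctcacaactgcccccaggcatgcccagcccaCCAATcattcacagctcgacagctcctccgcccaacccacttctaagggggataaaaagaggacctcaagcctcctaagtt
Krt77 held 3 TATA box matches that overlap one another, starting at -32, -30 and -28 from the start. Krt10 held TATA box matches at -31 and -29 and a CCAAT match at -144, and Krt5 held a CCAAT match at -81. The AP-1 letters did not occur in these 3 windows. Among 33469 windows of the same length over all genes, the TATA box letters occurred in 24.2%, CCAAT in 34% and the AP-1 letters in 6.34%. These matches describe the letters only.

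The keratins were among the most abundant transcripts of the tissue, and their order by TPM was largely shared by the groups. Krt14 ranked between 2 and 7 of 17251 genes in every rat, Krt13 between 7 and 16, and Krt5 between 11 and 19. Krt79, Krt17 and Krt1 followed, then Krt10, whereas Krt77 ranked between 2873 and 13921. Krt14 exceeded Krt13 in 17 of 17 rats, Krt5 exceeded Krt79 in 17 of 17 and Krt1 exceeded Krt10 in 17 of 17. Neighbours that could not be ordered were Krt79 and Krt17, with Krt79 higher in 7 of 17 rats, and Krt17 and Krt1, with Krt17 higher in 9 of 17. Krt13 was above Krt5 in 2 of 4 Control WT and 3 of 5 Control P1.hMR rats, and in all 8 UVB rats. Without UVB the 8 keratins together held 2.18% ± 0.201 (SD, n = 4) of the listed TPM in WT rats and 2.16% ± 0.0770 (SD, n = 5) in P1.hMR rats. With UVB they held 2.55% ± 0.233 (SD, n = 3) and 2.55% ± 0.249 (SD, n = 5).

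**Figure D1:**
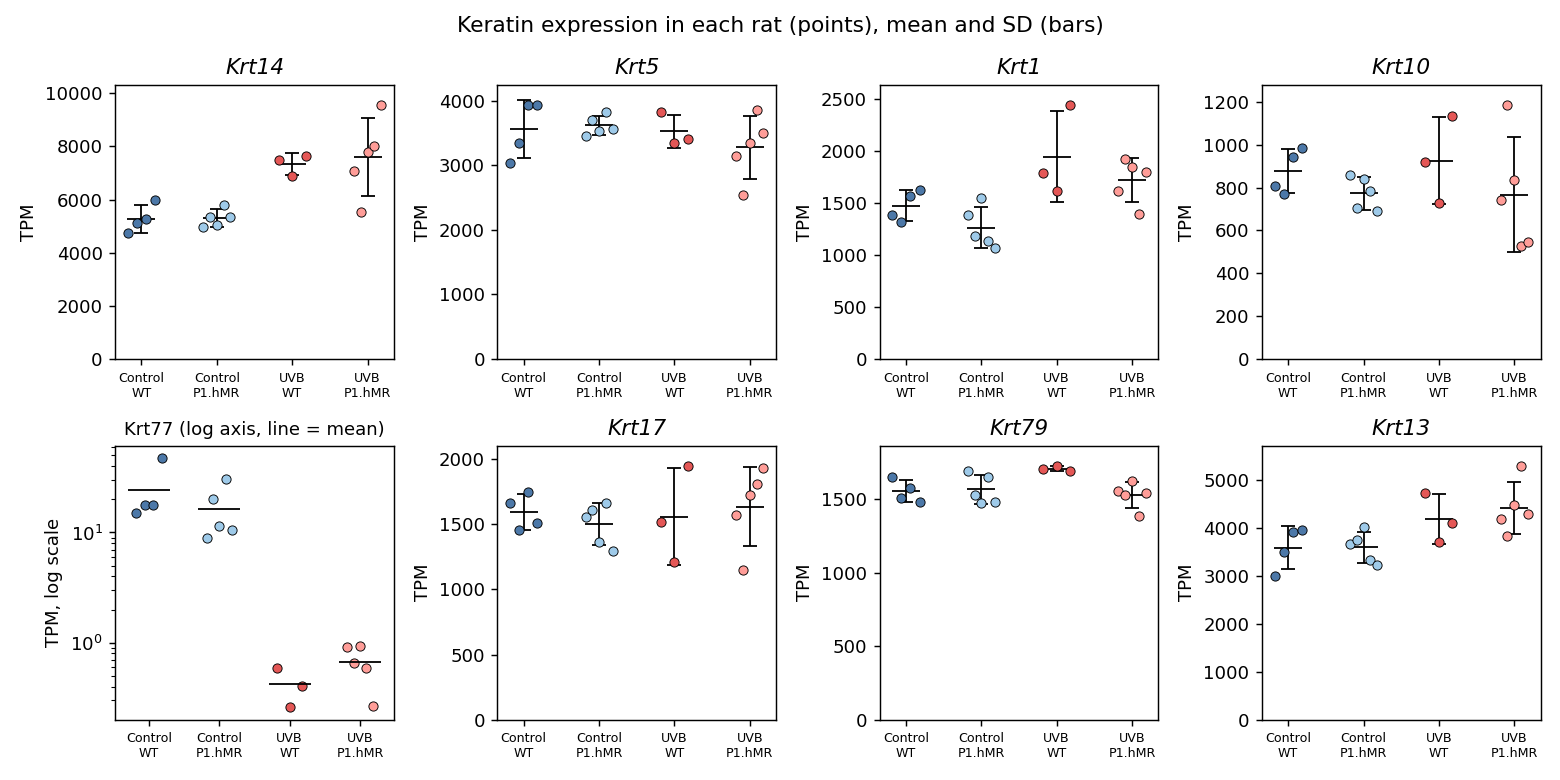
TPM of the 8 keratins in each rat (points) by group, with the group mean and SD as bars; Krt77 is drawn on a log axis with the mean as a line. Krt77 lay below 1 TPM in all 8 UVB rats and at 8.98 TPM or more in all 9 control rats, whereas 7 of 8 UVB rats lay above all controls for Krt14 and the groups overlapped for Krt5.

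The question asked of these genes was how UVB changed them in each genotype, and whether the transgene altered that change. Levels were compared as log2(TPM + 1) with limma over the 13105 genes that reached 1 TPM in at least 3 rats, all 8 keratins among them, and a call needed both a Benjamini-Hochberg adjusted p under 0.05 and a log2 fold change of 0.5 or more in size. UVB against control called 1 of 8 keratins in WT rats, where 7.91% of all genes were called, and 1 of 8 in P1.hMR rats, where 10.8% were called. The called gene was Krt77 in both genotypes. It was lower, as were 3.98% of all genes called in WT rats and 5.71% in P1.hMR rats. The UVB and control rats did not overlap for 3 of 8 keratins in WT rats (Krt14, Krt77 and Krt79), against 26.6% of all genes, and for 1 of 8 (Krt77) in P1.hMR rats, against 27.2%. With no fold threshold, 2 of 8 passed in WT rats (Krt14 and Krt77) against 21.5% of all genes, and 4 of 8 passed in P1.hMR rats (Krt14, Krt1, Krt13 and Krt77) against 39.1%. The median log2 fold change of the 8 keratins was 0.10 for WT rats and 0.04 for P1.hMR rats, beside 0.01 and -0.02 over all genes tested. P1.hMR and WT rats did not differ at this threshold for any of the 8, under UVB (0.0229% of all genes called) or without it (0.00763%), and the interaction of genotype and UVB called 0 genes (limma; 6.92% of all genes and 1 of 8 keratins at an unadjusted p under 0.05).

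Krt14, the type I keratin of basal cells, was the most abundant member and had the highest log2 fold change with UVB in both genotypes. It measured 4731, 5113, 5279 and 5995 TPM in Control WT rats and 6876, 7482 and 7657 TPM in UVB WT rats. In P1.hMR rats it measured 4973, 5028, 5336, 5339 and 5811 TPM without UVB, and 5528, 7065, 7778, 8024 and 9550 TPM with UVB. The groups did not overlap in WT rats, and in P1.hMR rats a single UVB rat lay within the control range. For WT rats the log2 fold change was 0.48 (standard error 0.13, adjusted p = 0.0175 from limma), and for P1.hMR rats 0.50 (standard error 0.11, adjusted p = 0.00204). Both values passed the adjusted p and fell just short of the fold threshold, the second at 0.498 before rounding. In P1.hMR rats the threshold was crossed under quantile normalization (0.56) and median-of-ratios scaling (0.51), and when Control P1.hMR 2 (0.50), 4 (0.53) or 5 (0.50) or UVB P1.hMR 1 (0.52) or 2 (0.61) was left out. The threshold was not crossed without Control P1.hMR 1 (0.48) or 3 (0.48) or UVB P1.hMR 3 (0.48), 4 (0.47) or 5 (0.41). In WT rats it was crossed without Control WT 4 (0.54) or UVB WT 2 (0.52), whereas the adjusted p was 0.058 without UVB WT 3 and 0.0943 under quantile normalization.

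Krt5, the type II partner of Krt14, did not pass the test in either genotype. It measured 3045, 3348, 3930 and 3933 TPM in Control WT and 3352, 3413 and 3823 TPM in UVB WT rats. Control P1.hMR rats ran from 3456 to 3832 TPM and UVB P1.hMR rats from 2538 to 3857 TPM. The groups overlapped in both genotypes. Its log2 fold change was -0.01 for WT rats (95% interval -0.25 to 0.24, adjusted p = 0.972 from limma) and -0.16 for P1.hMR rats (95% interval -0.36 to 0.05, adjusted p = 0.215), and the WT value was 0.04 under quantile normalization, with the other sign.

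The ratio of Krt14 to Krt5 within a rat differed between UVB and control rats in both genotypes. It measured 1.34, 1.53, 1.53 and 1.55 in Control WT rats, with a mean of 1.49 ± 0.0974 (SD, n = 4), and 1.46 ± 0.0407 (SD, n = 5) in Control P1.hMR rats. It measured 1.96, 2.05 and 2.24 in UVB WT rats, and 2.08, 2.18, 2.25, 2.33 and 2.72 in UVB P1.hMR rats. All 8 UVB rats lay above all 9 control rats, the highest control being 1.55 and the lowest UVB rat 1.96. The mean log2 ratio was higher with UVB by 0.49 for WT rats and by 0.65 for P1.hMR rats. A ratio within a rat does not depend on how that library was scaled. It describes unequal change of the values listed under the 2 symbols and is given with no test. The values under Krt14 are uncertain with respect to Krt16, as stated above, and the ratio carries the same uncertainty.

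**Figure D2:**
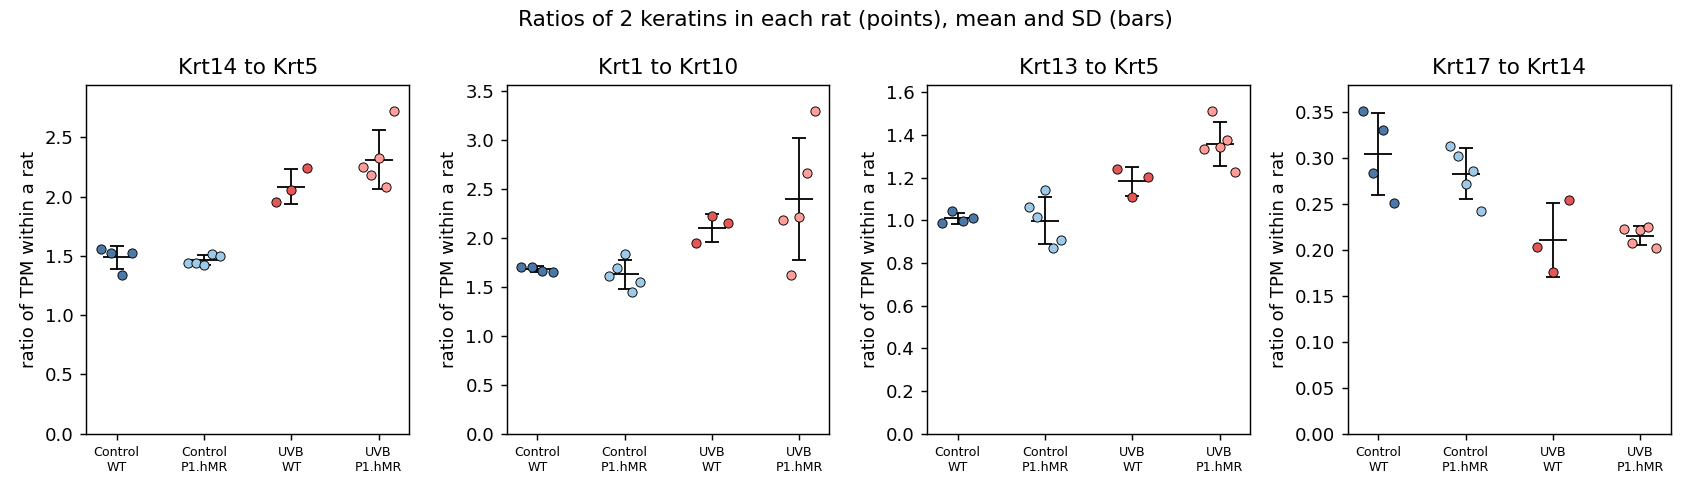
Ratio of TPM of 2 keratins within each rat (points) by group, with the group mean and SD as bars, for Krt14 to Krt5, Krt1 to Krt10, Krt13 to Krt5 and Krt17 to Krt14. All UVB rats lie above all controls for Krt14 to Krt5 (1.96 or more against 1.55 or less), and the spread of Krt1 to Krt10 is widest in UVB P1.hMR rats.

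Krt1, the type II keratin of suprabasal epidermal cells, passed the adjusted p in P1.hMR rats, and its partner Krt10 did so in neither genotype. Krt1 measured 1313, 1381, 1565 and 1626 TPM in Control WT and 1611, 1782 and 2436 TPM in UVB WT rats. In P1.hMR rats it measured 1066, 1135, 1185, 1382 and 1542 TPM without UVB and 1396, 1617, 1795, 1845 and 1922 TPM with UVB. Both comparisons overlapped at their edges, by 1 UVB rat in each genotype. Its log2 fold change was 0.45 in P1.hMR rats (standard error 0.12, adjusted p = 0.00869 from limma), past the adjusted p and under the fold threshold. In WT rats it was 0.38 (standard error 0.15, adjusted p = 0.0754), which did not pass. These calls moved with single rats, since the WT value was 0.51 (adjusted p = 0.0428) without UVB WT 2 and 0.21 (adjusted p = 0.345) without UVB WT 3, and the P1.hMR value was 0.52 without Control P1.hMR 3 or UVB P1.hMR 4. Under quantile normalization the WT value was 0.41 (adjusted p = 0.0477).

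Krt10, the type I partner of Krt1, measured 771, 809, 943 and 985 TPM in Control WT and 726, 918 and 1134 TPM in UVB WT rats. Control P1.hMR rats ran from 690 to 859 TPM, and UVB P1.hMR rats measured 525, 545, 740, 836 and 1184 TPM. The UVB P1.hMR rats spread to both sides of their controls, with a coefficient of variation of 35.0% against 9.91%. The rat with the highest Krt10 and Krt1 of that group, UVB P1.hMR 2, also had its lowest Krt14, Krt5, Krt17 and Krt13, and without it the P1.hMR log2 fold change of Krt10 was -0.25. The log2 fold change of Krt10 was 0.06 (95% interval -0.40 to 0.52, adjusted p = 0.871 from limma) for WT rats and -0.08 (95% interval -0.46 to 0.30, adjusted p = 0.767) for P1.hMR rats. The ratio of Krt1 to Krt10 was 1.68 ± 0.0289 (SD, n = 4) in Control WT and 2.10 ± 0.144 (SD, n = 3) in UVB WT rats, with no overlap. For P1.hMR rats the ratio was 1.63 ± 0.147 (SD, n = 5) without UVB and 2.39 ± 0.624 (SD, n = 5) with UVB, and the groups overlapped.

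Krt77 is a type II keratin of suprabasal epidermis and of the sweat gland duct, and it was the only member with a large UVB difference. It measured 14.97, 17.69, 17.87 and 47.19 TPM in Control WT rats and 8.98, 10.47, 11.5, 19.97 and 30.63 TPM in Control P1.hMR rats. With UVB it measured 0.26, 0.41 and 0.59 TPM in WT rats and 0.27, 0.59, 0.65, 0.92 and 0.93 TPM in P1.hMR rats. No UVB rat reached 1 TPM and no control rat fell under 8.98 TPM, so the groups did not overlap in either genotype. Control WT rats averaged 24.4 ± 15.2 TPM (SD, n = 4) and UVB WT rats 0.420 ± 0.165 TPM (SD, n = 3). Control P1.hMR rats averaged 16.3 ± 9.08 TPM (SD, n = 5) and UVB P1.hMR rats 0.672 ± 0.272 TPM (SD, n = 5). On the log2(TPM + 1) scale, which understates changes of low genes, this was 16.1-fold lower for WT rats (adjusted p = 8.03e-06 from limma) and 9.49-fold lower for P1.hMR rats (adjusted p = 2.33e-06). With a pseudocount of 0.1 the log2 fold changes were -5.44 and -4.34. Krt77 stayed called and lower with each rat left out in turn, including Control WT 4, the rat at 47.19 TPM, without which the WT value was -3.65. The difference between the genotypes' responses did not pass (interaction log2 value 0.77, standard error 0.48, adjusted p = 0.793 from limma), and neither did P1.hMR against WT without UVB (-0.54, 95% interval -1.23 to 0.15).

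**Figure D3:**
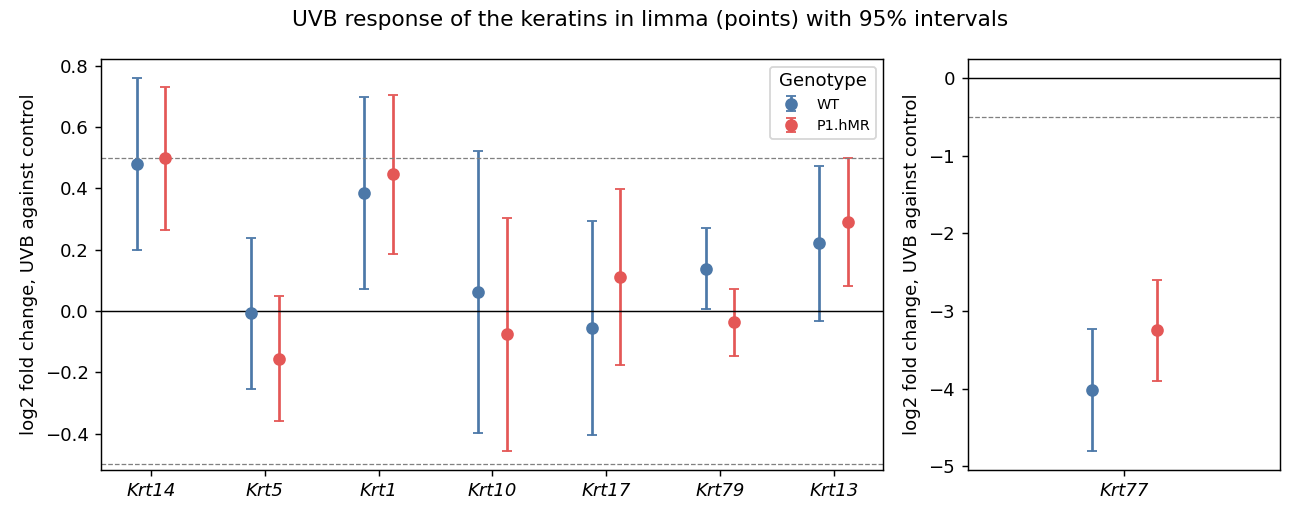
Log2 fold change of UVB against control for the 8 keratins in WT and P1.hMR rats (points) with 95% intervals of the limma model, Krt77 in a panel of its own scale and dashed lines at the fold threshold of 0.5. Krt14 sits at the threshold in both genotypes (0.48 and 0.50), Krt5 and Krt10 span 0, and Krt77 lies at -4.01 and -3.25.

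Krt17, the wound and appendage keratin, did not pass the test in either genotype. It measured 1453, 1508, 1663 and 1745 TPM in Control WT and 1208, 1517 and 1946 TPM in UVB WT rats. Control P1.hMR rats ran from 1295 to 1664 TPM and UVB P1.hMR rats from 1146 to 1930 TPM. The groups overlapped in both genotypes, and the UVB rats were more spread, with a coefficient of variation of 23.8% in UVB WT against 8.49% in Control WT rats. The log2 fold change was -0.06 (95% interval -0.40 to 0.29, adjusted p = 0.844 from limma) for WT rats and 0.11 (95% interval -0.18 to 0.40, adjusted p = 0.550) for P1.hMR rats. Without UVB WT 2 the WT value was 0.11, with the other sign. Relative to Krt14, Krt17 was lower with UVB: for WT rats the ratio was 0.304 ± 0.0451 (SD, n = 4) without UVB and 0.211 ± 0.0399 (SD, n = 3) with it, and the groups overlapped. For P1.hMR rats it was 0.283 ± 0.0277 (SD, n = 5) without UVB and 0.216 ± 0.0103 (SD, n = 5) with it, and they did not overlap.

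Of 22 genes listed for the wounded epidermis, 12 were called higher in WT rats, where 3.92% of all genes tested were, and 16 in P1.hMR rats, where 5.05% were. The other 10 and 6 were not called, none was called lower, and the medians were 0.76 and 0.90, beside 0.01 and -0.02 over all genes tested. Sprr1b, a cornified envelope protein, averaged 11.3 ± 4.21 TPM (SD, n = 4) in Control WT rats against 148 ± 33.3 TPM (SD, n = 3) in UVB WT rats, and 8.25 ± 1.11 TPM (SD, n = 5) in Control P1.hMR rats against 174 ± 66.2 TPM (SD, n = 5) in UVB P1.hMR rats. Lcn2, an iron-binding antimicrobial protein, had log2 fold changes of 3.54 (standard error 0.84, adjusted p = 0.00778 from limma) and 2.65 (standard error 0.70, adjusted p = 0.00691). Ereg and Tgfa, ligands of the epidermal growth factor receptor named here after their values were seen, were not called and had log2 fold changes of -0.39 and -0.35 in WT rats. Krt17 stood outside this list, and no test compared it with the list.

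Krt79, a type II keratin of the duct and infundibulum, measured 1480, 1513, 1577 and 1651 TPM in Control WT and 1697, 1706 and 1728 TPM in UVB WT rats. In P1.hMR rats it measured 1478, 1485, 1529, 1655 and 1691 TPM without UVB and 1385, 1529, 1541, 1558 and 1628 TPM with UVB. The 3 UVB WT rats lay above every other rat of the series. The log2 fold change was 0.14 (standard error 0.06, adjusted p = 0.125 from limma) for WT rats and -0.04 (standard error 0.05, adjusted p = 0.607) for P1.hMR rats, and the latter was 0.00 under quantile normalization. Under UVB, Krt79 was the only member whose genotypes did not overlap, and 5.87% of all genes did not overlap in this comparison. The difference of P1.hMR against WT was -0.16 (standard error 0.06) and did not pass the correction (adjusted p = 0.357 from limma), nor did the interaction of -0.17 (standard error 0.08, adjusted p = 0.711).

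Of the 8 duct and infundibulum markers, Krt79 and Krt17 included, 3 were called lower for WT rats and 4 for P1.hMR rats, none was called higher, and the other 5 and 4 were not called. Over all genes tested, 3.98% were called lower in WT rats and 5.71% in P1.hMR rats. The summed level of the 6 markers of that list other than Krt79 and Krt17 was 2440 to 4000 TPM in Control WT and 3231 to 4277 TPM in Control P1.hMR rats, against 1034 to 1783 TPM in UVB WT and 1268 to 1430 TPM in UVB P1.hMR rats, with no overlap. Cst6, an inhibitor of cysteine proteases named here after its values were seen, made up most of that sum, which therefore mainly follows 1 gene, at 3161 TPM in Control WT and 1312 TPM in UVB WT rats on average. None of the 8 markers was at 0 in any rat, and the part of this difference in the keratin values was not tested.

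Krt13, the type I keratin of mucosal suprabasal cells such as those of conjunctiva, was about as abundant as Krt5 in the control rats. It measured 2999, 3497, 3922 and 3971 TPM in Control WT and 3715, 4105 and 4743 TPM in UVB WT rats. In P1.hMR rats it measured 3237, 3329, 3672, 3761 and 4035 TPM without UVB and 3840, 4188, 4301, 4497 and 5302 TPM with UVB. The groups overlapped in both genotypes. The log2 fold change was 0.29 (standard error 0.10, adjusted p = 0.0277 from limma) for P1.hMR rats and 0.22 (standard error 0.12, adjusted p = 0.200) for WT rats. The P1.hMR value had an adjusted p of 0.0645 without Control P1.hMR 4, 0.0714 without Control P1.hMR 5, 0.0527 without UVB P1.hMR 3, 0.0783 without UVB P1.hMR 4 and 0.052 with no filter on low genes.

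Set against Krt5 in the same rat, Krt13 was higher with UVB in both genotypes. The ratio was 1.01 ± 0.0256 (SD, n = 4) in Control WT and 0.999 ± 0.112 (SD, n = 5) in Control P1.hMR rats, and 1.18 ± 0.0682 (SD, n = 3) in UVB WT and 1.36 ± 0.103 (SD, n = 5) in UVB P1.hMR rats. Neither genotype showed overlap. Krt4, the type II partner of Krt13, named here after its values were seen, averaged 1180 ± 178 TPM (SD, n = 4) in Control WT rats, against 1298 ± 260 TPM (SD, n = 3) once irradiated. For P1.hMR rats the values were 1264 ± 103 TPM (SD, n = 5) and 1404 ± 135 TPM (SD, n = 5), and neither comparison passed (adjusted p = 0.495 and 0.285 from limma). The summed level of 5 conjunctiva and goblet cell markers other than Krt13 was 945 to 1417 TPM in the control rats and 1145 to 1615 TPM in the UVB rats. Krt4 is 1 of these 5 and made up nearly all of that sum, which averaged 1185 TPM in Control WT rats. The sum therefore mainly follows 1 gene, and its part in Krt13 was not tested. Of 5 tested markers of this list, Krt13 included, 0 were called for WT rats, where 3.92% of all genes tested were higher and 3.98% lower. For P1.hMR rats 0 were called higher and 1 lower, where 5.05% and 5.71% of all genes were. The median log2 fold change of these markers was 0.22 for WT rats and -0.13 for P1.hMR rats.

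Outside the 8, the keratin family mostly fell. Of 33 other keratin genes tested, 1 was called higher and 19 lower in WT rats, where 3.92% and 3.98% of all genes tested were. In P1.hMR rats 2 were called higher and 17 lower, where 5.05% and 5.71% of all genes were. The medians were -0.96 and -0.65. Keratins listed for the hair shaft and root sheath made up much of the fall, with 13 of 18 called lower for WT rats and 11 of 18 for P1.hMR rats (medians -1.05 and -0.75). Their summed level ran from 1161 to 1541 TPM in Control WT and from 438 to 1197 TPM in UVB WT rats, and from 936 to 1895 TPM in Control P1.hMR and from 630 to 985 TPM in UVB P1.hMR rats. The part of hair follicle content in the member values was not tested. Among 9 tested keratins listed under other stratified epithelia, Krt75 of the hair follicle included, 1 was higher and 3 lower for WT rats (median -0.19). For P1.hMR rats 2 were higher and 2 lower (median -0.09), and Krt75 was among the lower genes in both genotypes. Krt12, the type I keratin of corneal epithelium, was higher in both genotypes (1.72 in P1.hMR rats, adjusted p = 9.76e-05, and 0.99 in WT rats, adjusted p = 0.0332, from limma). Its mean level was low, at 4.84 TPM without UVB and 17.9 TPM with UVB in P1.hMR rats. Of 5 tested cornea markers, Krt12 included, 1 was called higher and 1 lower for WT rats. For P1.hMR rats 2 were higher and 1 lower (medians -0.02 and 0.26). Their summed level averaged 1151 TPM in Control WT and 1189 TPM in UVB WT rats, and 1168 and 1163 TPM in P1.hMR rats. Krt75, a companion layer keratin, was lower in both genotypes (-0.71 for WT rats and -0.93 for P1.hMR rats). Krt24 was called lower in WT rats (-1.16), and Krt78 was called higher (0.54) and Krt2 lower (-0.67) in P1.hMR rats. Each had the same sign in the other genotype without passing there. Krt24 was at -0.48 in P1.hMR rats (adjusted p = 0.176 from limma). In WT rats Krt78 was at 0.45 (adjusted p = 0.0832) and Krt2 at -0.62 (adjusted p = 0.0553). Krt24 and Krt2 were low, with Control WT means of 3.24 and 1.70 TPM. Of 3 tested keratins of simple epithelium, Krt7 was lower in both genotypes (-0.57 and -0.65) and Krt18 in P1.hMR rats (-1.29), with medians of -0.21 and -1.03.

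**Figure D4:**
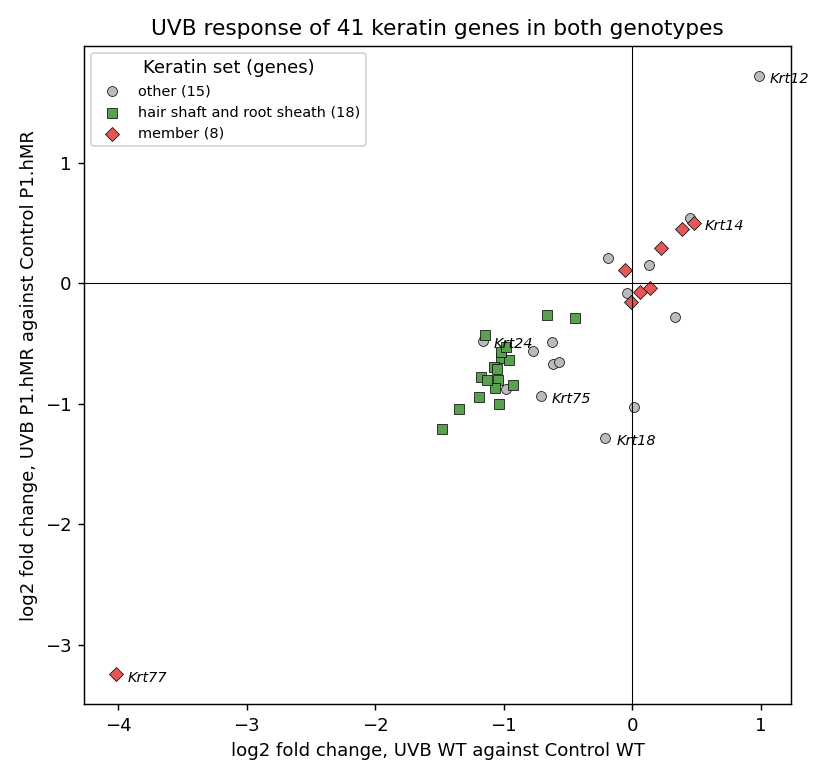
Log2 fold change of UVB against control in WT rats (x axis) and in P1.hMR rats (y axis) for the 41 keratin genes tested: the 8 described here (diamonds), 18 listed hair shaft and root sheath keratins (squares) and 15 others (circles). The others include hair follicle keratins outside that list, such as Krt39, Krt40 and Krt75. The 18 listed hair keratins lie below 0 in both genotypes, Krt77 lies lowest in both, and the other 7 described keratins lie between -0.16 and 0.50.

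Genes that work with these keratins were read from lists by role. Among genes for basal layer adhesion, Cd44, a hyaluronan receptor of basal cells, rose by 0.68 and 0.76 (log2 fold change for WT rats, then for P1.hMR rats). The pairs of log2 fold changes that follow keep this order. Cd44 does not stand for the whole list, whose genes named next were named after their values were seen. Col17a1, Dst, Plec and Col7a1 were lower in both genotypes, Itga3, Itga6, Itgb1 and Itgb4 were higher in both, and none of these was called. Itgb1 and Itgb4 were past the adjusted p and under the fold threshold in both genotypes. Itga3, Itga6, Dst, Plec and Col7a1 were so in P1.hMR rats only, and Col17a1 in neither. With no fold threshold, 21.5% of all genes tested passed in WT rats and 39.1% in P1.hMR rats. Of 17 tested genes of the suprabasal desmosome and granular layer, 2 were higher and 2 lower for WT rats, and 3 were higher and 1 lower for P1.hMR rats (medians -0.05 and 0.07). Tgm3 and Tgm1, transglutaminases that cross-link the cornified envelope, rose by 1.30 and 1.37 for Tgm3 and by 0.59 and 0.73 for Tgm1. Ivl, the envelope precursor involucrin, fell in both (-1.37 and -1.25), and Sbsn, suprabasin, was called lower in WT rats (-0.52). In P1.hMR rats Sbsn was also lower (-0.46, adjusted p = 5.96e-05 from limma), past the adjusted p and under the fold threshold. Among regulators of keratin genes, Fosl1, a subunit of the AP-1 factor, rose by 0.70 and 0.83, and Jund, another AP-1 subunit, fell in P1.hMR rats (-0.51). Of 13 tested genes for keratin partners and turnover, Sfn (14-3-3 sigma), which binds keratins, was the only gene called, higher in both (0.73 and 0.75), and the medians were 0.04 and -0.06. Cycling cell markers were called higher for 6 of 10 genes for WT rats and 7 of 10 for P1.hMR rats, and their part in the keratin values was not tested. Over all genes tested, 3.92% were called higher and 3.98% lower in WT rats, and 5.05% and 5.71% in P1.hMR rats.

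The genes most like each keratin were ranked by Pearson's r over 17 rats, after the group mean was taken from each rat, so that the UVB difference itself did not count. The closest gene was Itgb4 for Krt14 (r = 0.89), Eps8l2 for Krt5 (r = 0.96), Dnase1l3 for Krt1 (r = 0.87), Ddx58 for Krt10 (r = 0.85), Ctsf for Krt77 (r = 0.88), Slc26a9 for Krt17 (r = 0.90), Bcat2 for Krt79 (r = 0.85) and Rgs9 for Krt13 (r = 0.95). Itgb4, the integrin chain of basal hemidesmosomes, had mean levels of 53.9 TPM in Control WT and 71.9 TPM in UVB WT rats. Within the members, r was 0.82 for Krt5 and Krt14 and 0.70 for Krt1 and Krt10, both natural pairs. It was 0.75 for Krt5 and Krt13 and 0.69 for Krt14 and Krt17, which are not such pairs, so high values were not particular to partners. Each r is the highest among the 13105 genes tested or is read from a shared library, so it is given as a description with no test, and Krt77 varied mainly among the control rats.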

How the data were processed

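RNA from the MG of 17 rats was sequenced, and the authors deposited TPM for 17251 genes, written with a decimal comma and 2 decimals, of which 12 genes were at 0 in every rat. According to the study's methods, reads were checked with FastQC, aligned to rn7 with STAR and quantified with RSEM, whereas the labels' processing notes name FastQC, Trimmomatic, DRAGEN, Picard and rn7. Depth and counts cannot be read from TPM, so no count model was run, and error comes from the spread between rats.

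The sample labels gave the 4 groups. Values were taken as log2(TPM + 1), and the 13105 genes that reached 1 TPM in 3 or more rats were fitted together with limma 3.58.1 in R 4.3.3, with 1 mean per group and a variance trend. P-values are two-sided and adjusted over all genes. Called means an adjusted p under 0.05 with a log2 fold change of 0.5 or more in size. The script was tested on simulated data. Alternatives were a pseudocount of 0.1, no filter or a mean of at least 5 TPM, quantile or median-of-ratios scaling, no variance trend, a fit of only the groups compared, a replicate block, other fold change thresholds and leaving out each rat in turn. Python 3.11.15 with pandas 2.3.3 was used for tables. The members and the lists were chosen with earlier results of these data known. Named genes were all members, up to 2 called genes with the largest rise and 2 with the largest fall per list, and the genes with the highest r. Some genes that this rule names, and the counts and medians of the lists for basal layer adhesion and keratin gene regulators, are not reported here. Rats are counted as 1 sample each. Coordinates of sequences are those of RefSeq GRCr8, not of rn7.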

Additional observations from a re-analysis of the deposited data

Results flagged for a closer look

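Among 48 groups of values examined for a rat far from the rest of its group, 2 were noted, where chance gives about 1 in 20. Krt77 in Control WT 4 stood at 47.19 TPM, against 14.97 to 17.87 TPM in the other 3 Control WT rats. The log2 ratio of Krt14 to Krt5 in Control WT 3 was 0.42, against 0.61 to 0.64 in the other 3 Control WT rats.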

How the results depend on the processing

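Krt77 was called lower in both genotypes under every alternative run. The 8 keratins gave 1 call per genotype in most fits, and 2 for P1.hMR rats under quantile normalization or median-of-ratios scaling, 2 for WT rats with a replicate block, and 2 for WT and 4 for P1.hMR rats with no fold threshold. With each rat left out, 1 to 3 were called for WT rats and 1 to 2 for P1.hMR rats. Calls over all genes were 690 and 882 for WT and P1.hMR rats at a mean of 5 TPM or more, 2820 and 5123 with no fold threshold, and 219 and 300 at a log2 fold change of 1 or more. Genotype under UVB, with 3 calls over all genes, gave 1 with a pseudocount of 0.1, with only the compared groups or with the block, 0 at a mean of 5 TPM or more, and 1 to 52 with a rat left out, the 52 without UVB WT 3. Genotype without UVB gave 0 at a mean of 5 TPM or more and 1 to 6 with a rat left out (6 without Control WT 4), and the interaction 0 to 8 (8 without UVB WT 3).

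Small fold changes turned sign. Krt5 in WT rats was 0.038 under quantile normalization, 0.048 with the replicate block and -0.081 to 0.042 with a rat left out. With a rat left out, Krt10 ran from -0.096 to 0.23 in WT rats and from -0.25 to 0.043 in P1.hMR rats, and Krt17 from -0.23 to 0.11 in WT rats. Krt79 in P1.hMR rats was 0.0022 under quantile normalization, and its UVB WT mean was 1694 TPM after median-of-ratios scaling. The causes were not tested. Same-numbered rats did not deviate together (r from -0.19 to 0.24 over 22 pairs), so the block pairs numbers only, and it gave 1019 and 1400 calls and a Krt14 value of 0.54 in WT rats. Depth behind TPM is unknown, and groups of 3 to 5 rats limit what can be detected.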
